A study of Mus musculus with 8 samples.

Results

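The inflammasome and apoptotic caspases of mouse retinal astrocytes (AC) were examined as a list of 8 genes, Casp1, Casp4, Casp12, Casp2, Casp6, Casp8, Casp9 and the gasdermin gene Gsdmd. Members were taken as the rows of the expression table whose gene symbol was on the list, and 7 of the 8 had a row among the 13575 genes of the table. Casp4, the mouse gene of caspase-11, had no row and was not measured here. The list was chosen by its values in the comparison described here, the same 8 libraries included, so the members' values below are a description and carry no test.

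The AC were from 4-week-old mice, with 4 libraries from wild-type Cyp1b1+/+ mice and 4 libraries labelled Cyp1b1-/-, from mice that lack this cytochrome P450 gene in all cells. The strain entry of the Cyp1b1+/+ libraries was C57BL/6, whereas those of the libraries labelled Cyp1b1-/- were C57BL/7, C57BL/8, C57BL/9 and C57BL/9, which may be an entry error. According to the methods, retinas of a single litter of both sexes were pooled, the cells not bound by anti-CD31 beads were kept, and both genotypes were grown for several passages in medium that contained interferon-γ. No source said whether the libraries of a group came from separate isolations, so every p-value below measures only the spread between these libraries, which may be technical.

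Caspases are proteases that cut after aspartate and are made as inactive precursors. The inflammatory caspases, caspase-1 and mouse caspase-11, are switched on at inflammasomes or by bacterial lipopolysaccharide and cut gasdermin D, whose freed part forms pores in the plasma membrane. Caspase-1 also matures interleukin 1β and interleukin 18. The apoptotic initiators caspase-8, caspase-9 and caspase-2 are switched on at death receptors, at the apoptosome and at the PIDDosome. Caspase-8 and caspase-9 activate the executioner caspases. In astrocytes these pathways are studied as sources of inflammatory cytokines and of cell death after injury.

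The caspases of the list share the catalytic cysteine that defines the family. The stretches below show the bases around it for each caspase, the unmeasured Casp4 included. They run 15 bases to each side of the cysteine codon, which is in capitals, and were read from the GENCODE M21 transcripts of the GRCm38 build.
Casp1: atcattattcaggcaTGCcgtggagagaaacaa
Casp4: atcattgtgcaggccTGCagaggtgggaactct
Casp12: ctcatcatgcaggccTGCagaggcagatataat
Casp8: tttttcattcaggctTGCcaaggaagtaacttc
Casp9: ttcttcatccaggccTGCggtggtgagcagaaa
Casp2: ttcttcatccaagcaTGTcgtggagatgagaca
Casp6: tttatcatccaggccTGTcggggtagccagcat
Of the 33 bases, 22 in Casp4, 19 in Casp12, 19 in Casp8, 23 in Casp9, 22 in Casp2 and 19 in Casp6 were identical to Casp1. Counts over so short a stretch around a shared site cannot rank how closely the genes are related. Gasdermin D is a caspase substrate and has no such site.

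Casp1 and Casp12, with Casp4 between them, lie in a row on the plus strand of chromosome 9. In GRCm38, Casp1 spans chr9:5298517-5307265, Casp4 chr9:5308828-5336783 and Casp12 chr9:5345430-5373032. Casp4 starts 1563 bp and Casp12 38165 bp past the end of Casp1. The promoters of the measured pair, which differed in opposite directions between the groups, are given as RefSeq places them (GRCm38.p6, plus strand, 250 bases before to 50 after the start, chr9:5298267-5298566 for Casp1 and chr9:5345226-5345525 for Casp12). Because the medium held interferon-γ, both strands of each promoter were searched for the gamma-activated site TTCNNNGAA and the interferon-stimulated response element GAAANNGAAA, letters that do not overlap within a match. Capitals mark the matches.
Casp1: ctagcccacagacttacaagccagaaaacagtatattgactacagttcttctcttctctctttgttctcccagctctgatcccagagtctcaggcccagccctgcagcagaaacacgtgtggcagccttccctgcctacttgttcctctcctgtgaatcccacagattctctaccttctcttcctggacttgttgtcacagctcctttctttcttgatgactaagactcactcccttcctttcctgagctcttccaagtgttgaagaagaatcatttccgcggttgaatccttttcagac
Casp12: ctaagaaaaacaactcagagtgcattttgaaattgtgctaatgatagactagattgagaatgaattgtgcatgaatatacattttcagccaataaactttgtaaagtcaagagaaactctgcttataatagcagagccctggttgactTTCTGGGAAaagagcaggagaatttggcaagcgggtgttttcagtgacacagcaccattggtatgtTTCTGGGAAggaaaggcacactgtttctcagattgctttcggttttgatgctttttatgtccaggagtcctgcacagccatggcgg
Casp12 held 2 matches to TTCNNNGAA, 102 and 36 bases before the start and both as TTCTGGGAA. It had no match in the promoters of Casp1, Casp4, Casp2, Casp6, Casp8 or Casp9, and was present in 8.3% of all 32851 promoters of the same length. No promoter of these genes held GAAANNGAAA, which was present in 3.44% of all. Gsdmd had no promoter in the set used and was not searched. A match or its lack describes only the letters of these windows. The other measured members lie on other chromosomes, Gsdmd at chr15:75862327-75867408, Casp8 at chr1:58795374-58847503, Casp9 at chr4:141793612-141815976, Casp2 at chr6:42264985-42282508 and Casp6 at chr3:129901425-129914103.

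Values are read counts per gene that the authors scaled by TMM to a common library size and rounded, so the sequencing depth of each library is unknown. The Cyp1b1+/+ column totals were 19261729 to 19370850 and those of the other libraries 19491502 to 20134745. Several facts of the libraries bear on every group comparison below. Cyp1b1 itself was at 749, 829, 856 and 882 in the Cyp1b1+/+ libraries and at 1296, 1276, 1288 and 1368 in the libraries labelled Cyp1b1-/-, so its RNA was higher where the gene is said to be lost. The part of the gene that was removed is not given in the sources used here. Xist, the RNA of the inactive X chromosome, lay between 21084 and 26863 in Cyp1b1+/+ AC and between 34 and 46 in the other libraries, and the Y-linked Ddx3y was at 0 or 1 in the first group and at 1230 to 1324 in the second. Despite the pooled litters of both sexes, the sex of the cells and the genotype therefore cannot be told apart in any value below. Replicate 2 of the libraries labelled Cyp1b1-/- stood apart, with 517 genes over 2-fold higher than in its 3 fellow libraries on average, against 32 to 52 genes for each of those.

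Markers of other cell types were examined in the same libraries. Of 20 microglia and macrophage markers, Csf1r and Cd68 are given here, and both were lower in the libraries labelled Cyp1b1-/-. Csf1r, the macrophage growth factor receptor, was at 32 to 37 and at 7 to 15, and Cd68, a lysosomal protein, at 42 to 64 and at 32 to 42. Without Cyp1b1+/+ replicate 2 or 3, or replicate 1 labelled Cyp1b1-/-, Cd68 missed the threshold (limma, adjusted p = 0.0690, 0.0810 and 0.0694). Ptprc, Aif1, Itgam, Tyrobp and Cx3cr1 had no row, and none of 16 neutrophil and lymphocyte markers did. Csf1r and Cd68 thus moved in the same direction as Casp1, and their part in its difference was not tested. In cells in bulk, fewer cells of a type and less RNA per cell cannot be told apart. Of 14 astrocyte markers 8 were measured, with summed values of 94338 to 101579 and of 117679 to 147701, most of it vimentin. Glul, Sox9, Nes, Gja1, Slc1a2 and Slc1a3 were among the 8 with a row, whereas Gfap, S100b, Pdgfra, Aqp4 and Aldh1l1 had none. Slc1a2 was low in both groups, at 11 to 17 and 13 to 20, as was Slc1a3, at 16 to 32 and 22 to 32. Pax2, of the astrocyte lineage of the retina, was at 28 to 39 in the Cyp1b1+/+ libraries and at 0 or 1 in the others. The 8 markers did not move together, with 2 past the test upward and 2 downward. Vimentin differed by 0.46 and Gja1 by 0.95 on the log2 scale (limma, adjusted p = 0.000640 and 0.0129). Nes differed by -0.23 and Pax2 by -4.81 (adjusted p = 0.00189 and 5.18e-06). Gja1 was at 736 to 851 and, apart from 3124 in replicate 2 labelled Cyp1b1-/-, at 1180 to 1232. The 4 endothelial markers with a row, of 12, summed to 333 to 395 and, apart from replicate 2 labelled Cyp1b1-/- with 356, to 318 to 321, and Pecam1 and Cdh5 were among those without one. Kdr, a receptor of vascular endothelial growth factor, was lower in the libraries labelled Cyp1b1-/-, at 191 to 228 and 156 to 175 (-0.40 on the log2 scale, adjusted p = 0.00139). The other endothelial markers with a row, Esam, Flt1 and Eng, were not past the test (limma, adjusted p = 0.926, 0.662 and 0.971). The 5 of 14 pericyte and fibroblast markers summed to 25670 to 29239 and 26384 to 27919, apart from replicate 2 labelled Cyp1b1-/- with 208653, and most of each other sum was Acta2. Pdgfrb, the pericyte growth factor receptor, was lower, at 725 to 883 and, with 738 in replicate 2, at 301 to 361 in the other 3 (-1.0 on the log2 scale, adjusted p = 0.00445). The collagen gene Col3a1 was at 770 to 946 and at 46, 6407, 73 and 62, a difference that passed the test without replicate 2 only (-3.88, adjusted p = 4.10e-11). The part of these markers in the differences below was not tested. Krt19 alone stood for 8 epithelial markers, at 717 to 791 and 706 to 774.

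The inflammatory members came first in size. Casp1 RNA was present in all 4 Cyp1b1+/+ libraries and at or near 0 in the others, the RNA of its substrate gasdermin D was more than 2-fold higher there, and Casp12 was about 1.42-fold higher. Casp1, the interleukin 1β-converting enzyme, was at 173, 158, 147 and 136 in the Cyp1b1+/+ libraries and at 0, 0, 0 and 3 in the libraries labelled Cyp1b1-/-. The groups were far from overlapping, and only replicate 4 of the second group was above 0. The means were 154 ± 15.8 and 0.75 ± 1.5 (SD, n = 4). The log2 difference was -6.77 ± 0.45 (SE) after adding 1 to every value, and it depended on that constant, at -7.56 with 0.5 and -9.34 with 0.1, so no linear fold is given. By signed log2 difference Casp1 was the second from the lowest of the 13575 genes.

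Gsdmd, whose protein forms the pores of pyroptosis, was at 283, 278, 291 and 284 in the Cyp1b1+/+ libraries. It was at 736, 722, 761 and 745 in the libraries labelled Cyp1b1-/-. Every library of the second group was above every library of the first, with a gap many times the spread within either. The means were 284 ± 5.35 and 741 ± 16.4 (SD, n = 4), a fold of 2.61 and a log2 difference of 1.38 ± 0.04 (SE). Gsdmd was number 264 of the 13575 genes from the highest.

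Casp12, an inflammatory caspase by sequence that sits at the endoplasmic reticulum, was at 1438, 1360, 1287 and 1272 in the Cyp1b1+/+ libraries. In the libraries labelled Cyp1b1-/- it was at 1901, 1830, 1923 and 1954. The lowest of these lay above the highest Cyp1b1+/+ value. The means were 1339 ± 76.2 and 1902 ± 52.7 (SD, n = 4), and the log2 difference was 0.51 ± 0.04 (SE). Casp12 and Casp1, less than 50 kb apart, thus differed in opposite directions.

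**Figure D1:**
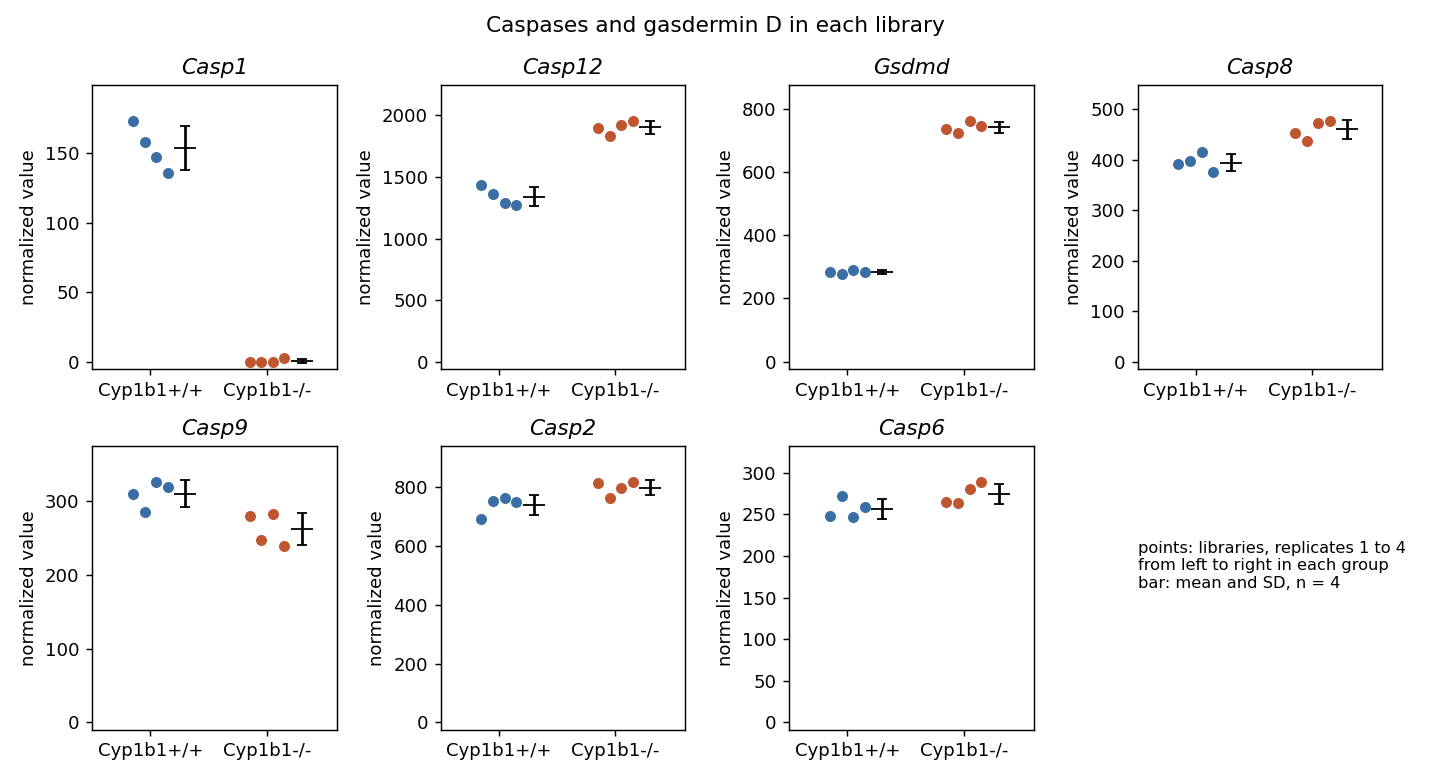
Normalized value (linear vertical axis, starting near 0) of the 7 measured members in each library, with replicates 1 to 4 of each group from left to right and the mean ± SD (n = 4) beside them. Casp1 is at 0 to 3 in the libraries labelled Cyp1b1-/-, Gsdmd and Casp12 lie wholly above the Cyp1b1+/+ libraries, and Casp2 and Casp6 overlap between the groups.

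The apoptotic members differed far less, each by under 0.25 on the log2 scale. Casp8, the initiator at death receptors, was at 392, 397, 415 and 375 in the Cyp1b1+/+ libraries and at 453, 438, 473 and 477 in the libraries labelled Cyp1b1-/-. The groups did not overlap, and the log2 difference was 0.22 ± 0.05 (SE). Casp9, the initiator of the apoptosome, was at 310, 285, 326 and 319 and at 280, 247, 282 and 239. It was the only apoptotic member that was lower in the libraries labelled Cyp1b1-/-, by -0.24 ± 0.07 (SE) on the log2 scale. The groups came within 3 of each other, with 285 as the lowest Cyp1b1+/+ value and 282 as the highest of the others.

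Casp2, the initiator of the PIDDosome, was at 690, 753, 762 and 748 and at 812, 762, 796 and 817. The groups met at 762, and the log2 difference was 0.11 ± 0.04 (SE). Casp6, by class an executioner that cuts lamin A, was at 248, 272, 247 and 259 and at 265, 264, 280 and 289. Its groups overlapped, with a log2 difference of 0.10 ± 0.06 (SE). The annotation places other genes over Casp8 (Gm37760), Casp9 (Cela2a and Ctrc, on the opposite strand, 1015 bp), and Casp2 (Gm25108), none with a row of its own. Whether the counting used strand is not given in the sources used here, and reads of such overlaps cannot be told apart.

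Of the 7 measured members, 5 had groups that did not overlap, with the libraries labelled Cyp1b1-/- above in 3 and below in 2. Over all genes this share was 49.3%. At an adjusted p of 0.05, 53.7% of all genes passed, 26.8% higher and 26.9% lower. Nothing is read from the members' counts and no call is given for them, because the members were selected on this contrast. The members' median log2 difference was 0.11, beside -0.000441 for all genes. Apart from Casp1, replicates were close, with a coefficient of variation of 1.89 to 5.78% among Cyp1b1+/+ libraries and of 2.21 to 8.47% among the others. Replicate 2 labelled Cyp1b1-/- lay within -0.11 to -0.05 of the mean of the other 3 on the log2 scale in these 6 members. Without it Gsdmd differed by 1.39, Casp12 by 0.53, Casp8 by 0.24 and Casp9 by -0.22 on that scale.

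The genes around the members were grouped by role into 8 lists, and their differences were tested with limma over all 13575 genes with Benjamini-Hochberg adjustment. Higher and lower refer to the libraries labelled Cyp1b1-/- and to an adjusted p below 0.05, and every call stands beside the 26.8% of all genes higher and 26.9% lower.

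Around caspase-1, the measured sensors that act on its platforms, Naip2 and Naip6, were lower, and calls in both directions were found among the other genes of the list. Of 24 inflammasome sensors and adaptors, 10 were measured, of which 3 were higher, 4 lower and 3 not past the test, with a median log2 difference of 0.20. Nlrp3, Nlrc4, Aim2, Nlrp1b, Mefv and Pycard, which form or bridge the caspase-1 platforms, had no row. The lower genes included both measured NAIP genes, which in mouse bind bacterial proteins and recruit NLRC4. Naip2 was at 67, 66, 68 and 58 and at 10, 11, 17 and 11, a log2 difference of -2.34 ± 0.20 (SE, adjusted p = 4.73e-06). Naip6 was at 26, 26, 26 and 27 and at 8, 3, 5 and 6, a log2 difference of -2.13 ± 0.30 (SE, adjusted p = 0.000177). The groups of both genes were separate by a wide margin, but the NAIP genes are close copies and the counting may have split reads between them.

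Nod1, a sensor of bacterial peptidoglycan, was lower (288 to 329 against 165 to 208, log2 difference -0.70, adjusted p = 4.61e-05). Its kinase partner Ripk2, which also carries a caspase recruitment domain, was higher at 2767, 2658, 2716 and 2764 against 1732, 1665, 1705 and 1709 (log2 difference 0.68, adjusted p = 4.9e-08). The sensor and its kinase therefore differed in opposite directions. Nlrx1, a mitochondrial relative of the NOD sensors, was higher (0.81 on the log2 scale, adjusted p = 2.39e-05), as was Nek7, the kinase that NLRP3 needs (0.42, adjusted p = 5.8e-05). Panx1, a membrane channel opened by caspases, was lower (-0.40, adjusted p = 0.0135). Txnip was at 39 to 71 and, apart from 199 in replicate 2, at 44 to 47, and Nod2 and Ifi204 were likewise not past the test.

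Caspase-1 matures cytokines of the interleukin 1 family, and genes for their receptors were measured more often than those for the cytokines. Of 18 genes of the family and its receptors, 10 were measured, of which 5 were higher, 2 lower and 3 not past the test, with a median log2 difference of 0.17. Il1a, Il1b and Il33 had no row, and Il18 was low in both groups, at 38 to 50 and 30 to 56 (log2 difference -0.07 ± 0.20, SE, adjusted p = 0.790). Il1rl1, the interleukin 33 receptor, was higher at 1997, 1974, 2010 and 2041 against 1136, 1239, 1116 and 1097 (log2 difference 0.81, adjusted p = 1.62e-07). Il18rap, a chain of the interleukin 18 receptor, was higher as well (0.75, adjusted p = 3.23e-06). The shared accessory chain Il1rap was lower at 920, 946, 1022 and 973 against 1364, 1574, 1438 and 1445 (-0.59, adjusted p = 5.01e-06). Receptor chains of the same family thus differed in both directions.

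Il18bp, which neutralizes interleukin 18, and Sigirr, an inhibitory receptor of the family, were both higher, Il18bp by 0.38 (adjusted p = 0.000322) and Sigirr by 1.36 (adjusted p = 0.00130) on the log2 scale. Sigirr was low, at 8 to 18 and 34 to 42. Of the adaptor and kinase genes under these receptors, the X-linked Irak1 was higher (0.23, adjusted p = 0.000500) and Myd88 lower (-0.35, adjusted p = 0.000519).

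Caspase-11 is induced through TLR4 and interferon receptors, and guanylate-binding proteins (GBPs) bring it to bacterial lipopolysaccharide. Of the 30 genes of this group 29 were measured, of which 17 were higher, 5 lower and 7 not past the test, with a median log2 difference of 0.16. Tlr4, the receptor of lipopolysaccharide outside the cell, was at 89, 77, 87 and 87 and at 192, 223, 202 and 218 (log2 difference 1.29, adjusted p = 9.13e-07). Its co-receptor Cd14 was also higher, at 23 to 38 and 42 to 57 (0.68, adjusted p = 0.0108), and its partner Ly96 was at 32 to 52 and 33 to 56, not past the test (adjusted p = 0.550). The adaptor gene Ticam1 was lower, at 248 to 287 and 216 to 236 (-0.26, adjusted p = 0.00694). Gbp4 was at 23078, 22847, 23823 and 23336 and at 44757, 42660, 47575 and 46410 (0.96, adjusted p = 6.31e-08). Every library labelled Cyp1b1-/- thus lay well above every Cyp1b1+/+ library for Tlr4 and Gbp4.

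Of the 10 GBP genes measured, 6 were higher, 1 was lower and 3 were not past the test. Besides Gbp4, Gbp6 (0.44, adjusted p = 5.01e-06), Gbp11 (0.67, adjusted p = 0.00108), Gbp10 (0.41, adjusted p = 0.000138), Gbp9 (0.16, adjusted p = 0.0337) and Gbp3 (0.09, adjusted p = 0.0450) were higher, Gbp5 was lower (-0.31, adjusted p = 0.00269), and Gbp2, Gbp7 and Gbp8 were not past the test. These genes are close copies of each other, and the counting may have split reads among them. Iigp1, an immunity-related GTPase induced by interferon-γ, was higher (0.47, adjusted p = 8.58e-06), whereas the receptor chains Ifnar1 (-0.39, adjusted p = 7.05e-06), Ifnar2 (-0.61, adjusted p = 2.02e-05) and Ifngr2 (-0.65, adjusted p = 1.47e-05) were lower. The 3 lower chains lie together within chr16:91372783-91565623. Ifngr1, the other chain of the interferon-γ receptor, lies on chromosome 10 and was higher (0.29, adjusted p = 0.00124). Interferon-γ was in the medium of both groups according to the methods, and its part in these levels was not tested.

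**Figure D2:**
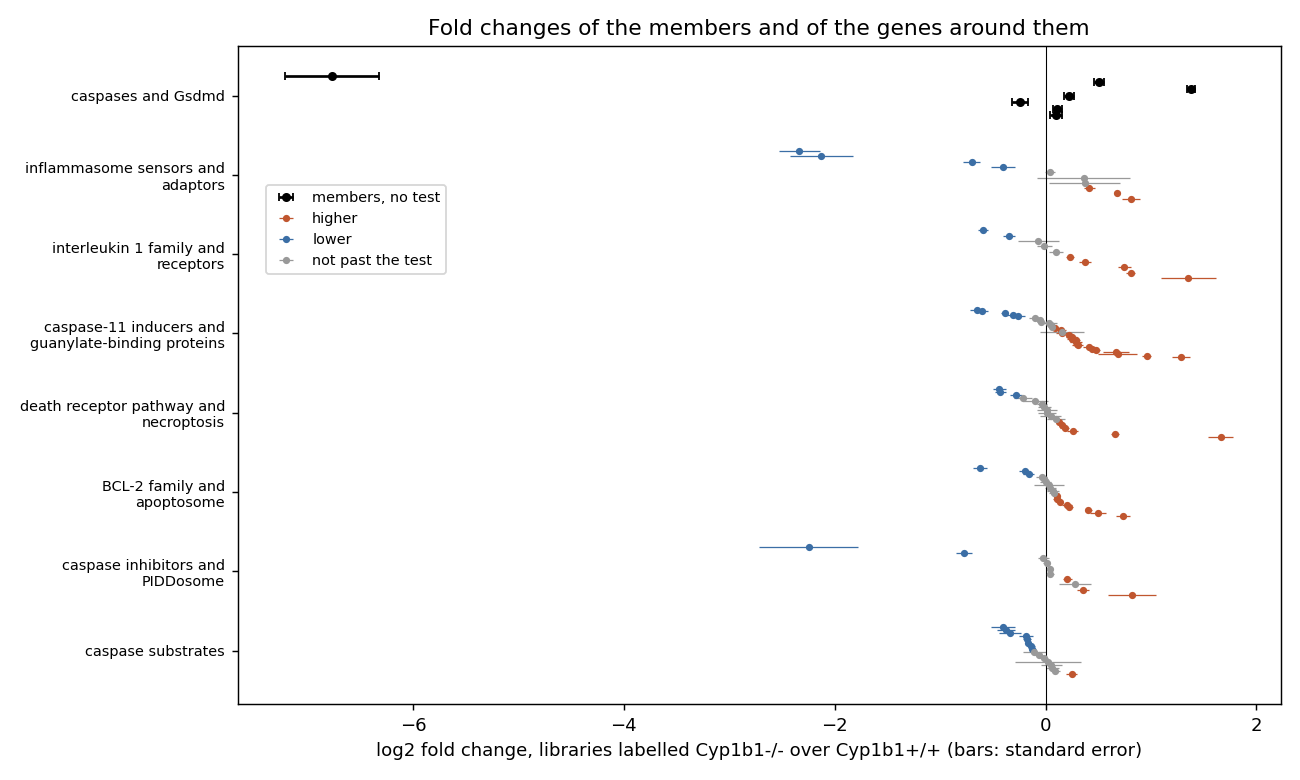
Log2 difference (horizontal axis, libraries labelled Cyp1b1-/- over Cyp1b1+/+, n = 4 each) of the 7 members (black, no test) and of the measured genes of 7 of the 8 lists, with bars for the standard error and colour for the limma call. Casp1 lies at -6.77, far to the left of all list genes, of which Naip2 is the lowest at -2.34 and Tnfsf10 the highest at 1.66.

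Few relatives of the members had a row, and of the 13 other caspases, gasdermins and membrane rupture genes 2 are given here. The gasdermin E gene, listed as Dfna5, was at 279 to 337 and 314 to 332 and was not past the test (adjusted p = 0.350). Ninj1, whose protein ruptures the membrane after pore formation, was lower at 645, 593, 578 and 583 against 730, 775, 740 and 777 (-0.33, adjusted p = 0.000172). Gsdmd and Ninj1, which act in that order in pyroptosis, thus differed in opposite directions.

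Around Casp8, the genes of the death receptor pathway and of necroptosis mostly differed little. Of 21 genes 17 were measured, with 6 higher, 3 lower and 8 not past the test and a median log2 difference of 0.01. Tnfsf10, which encodes the death ligand TRAIL, was at 52, 58, 56 and 71 and at 171, 179, 216 and 190 (log2 difference 1.66, adjusted p = 1.53e-06). The lower genes were the 3 TRAIL receptors, the signalling receptor Tnfrsf10b (-0.28, adjusted p = 0.00259) and the mouse decoy receptors Tnfrsf22 (-0.44, adjusted p = 0.000206) and Tnfrsf23 (-0.43, adjusted p = 0.000109), the last pair close copies. The ligand and its receptors thus differed in opposite directions. Cyld, the deubiquitinase that acts on RIPK1, was higher at 3558, 3725, 3565 and 3757 against 2429, 2253, 2317 and 2263 (0.66, adjusted p = 2.26e-07). Cflar, the catalytically dead relative of caspase-8 that restrains it, was higher by 0.26 (adjusted p = 0.00157) and Mlkl, the pore former of necroptosis, by 0.16 (adjusted p = 0.00144). Cflar lies at chr1:58711508-58758884, near Casp8. Fas, Fadd, Tradd and Tnfrsf1a were not past the test, and Ripk3, Fasl and Tnf had no row.

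Around Casp9, 18 of 25 genes of the BCL-2 family and the apoptosome were measured, of which 8 were higher, 3 lower and 7 not past the test, with a median log2 difference of 0.08. Apaf1, the scaffold that activates caspase-9, was higher at 1575, 1506, 1559 and 1554 against 1175, 1169, 1126 and 1202 (log2 difference 0.41, adjusted p = 3.64e-06). Casp9 itself, for which no call is given, differed by -0.24 on the log2 scale. Bad, a promoter of cell death, was higher (0.73, adjusted p = 5.63e-06). Among the inhibitors of cell death, Bcl2 (0.50, adjusted p = 0.000260) and Bcl2l1 (0.22, adjusted p = 0.000812) were higher. Bok, a pore former of the family, was lower at 302, 294, 299 and 281 against 445, 477, 403 and 494 (-0.62, adjusted p = 2.76e-05), as was Bid, which caspase-8 cuts (-0.20, adjusted p = 0.0111). Bax and Bak1, the main pore formers, were not past the test. Genes that promote and genes that restrain cell death were thus found among those higher.

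Around Casp2, the partners of the PIDDosome differed in opposite directions. Of 11 caspase inhibitors and PIDDosome genes 10 were measured, with 3 higher, 2 lower and 5 not past the test and a median log2 difference of 0.04. Pidd1, the scaffold, was at 695, 808, 888 and 905 and at 463, 501, 487 and 464 (log2 difference -0.78, adjusted p = 1.71e-05). Cradd, the adaptor that links it to caspase-2, was low and higher in the libraries labelled Cyp1b1-/-, at 19 to 44 and 50 to 60 (0.82, adjusted p = 0.0123). Nol3, an inhibitor with a caspase recruitment domain, was at 45, 19, 34 and 30 and at 2, 10, 11 and 4 (-2.24, adjusted p = 0.00241). Without genes under 10 in any library, 1 gene of this list was lower in place of 2, because Nol3 was then not tested. The X-linked Xiap, whose protein blocks caspase-9 and the executioner caspases, was higher (0.21, adjusted p = 0.00217). Serpinb9, an inhibitor of granzyme B, was higher as well (0.36, adjusted p = 0.000649), and Birc2, Birc3, Birc5, Birc6 and Xaf1 were not past the test.

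Proteins cut by caspases formed most of the last list, which also held nucleases such as that of Dffb, and here most calls were lower. Of the 17 genes of this list 16 were measured, of which 1 was higher, 8 lower and 7 not past the test, with a median log2 difference of -0.12. The changes were small, between -0.40 and 0.25. Parp1, a DNA repair enzyme, was at 3729, 3487, 3711 and 3712 and at 3286, 3199, 3283 and 3263 (log2 difference -0.17, adjusted p = 0.00111). Sptan1, a spectrin of the membrane skeleton, was also lower (-0.18, adjusted p = 0.00211). Xkr8, the scramblase that exposes phosphatidylserine, was lower (-0.37, adjusted p = 0.00471), as was Dffb, the nuclease of apoptotic DNA fragmentation (-0.34, adjusted p = 0.0192, and 0.0575 or 0.0560 without Cyp1b1+/+ replicate 2 or 3). Acin1, a chromatin condensation factor, was lower by -0.12 (adjusted p = 0.00820), and Panx1 is described above. Stk3, a kinase of the Hippo pathway, was the gene higher (0.25, adjusted p = 0.00280). Without Cyp1b1+/+ replicate 1, or without replicate 3 labelled Cyp1b1-/-, 2 genes of this list were higher. Lmna, the substrate of caspase-6, was at 12520 to 14411 and 13381 to 16236 and was not past the test (adjusted p = 0.414).

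**Figure D3:**
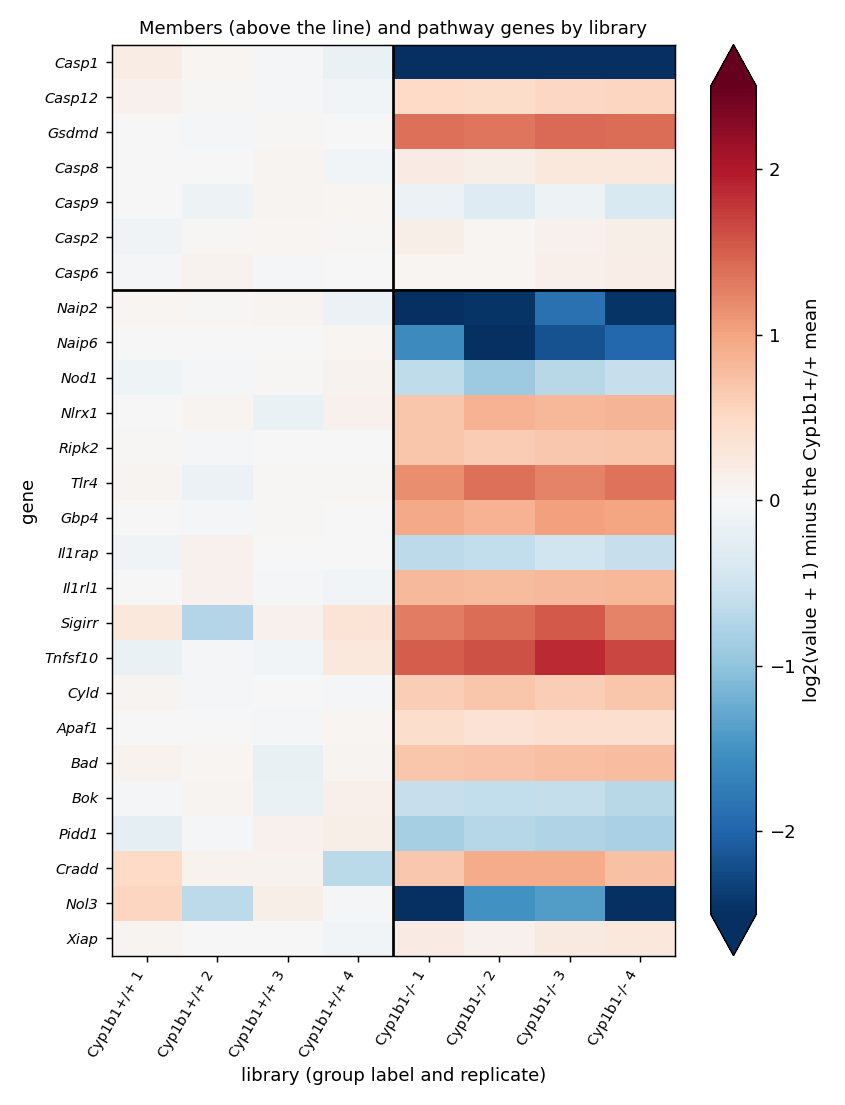
Log2(value + 1) minus the Cyp1b1+/+ mean (colour, saturated beyond 2.5 either way) of the 7 members, above the line, and of 19 pathway genes described in the text, by library. Each of the members (no test) and of the pathway genes stays on the same side of 0 across the 4 libraries labelled Cyp1b1-/-, replicate 2 included. Casp1, Naip2, Naip6 and Nol3 are the darkest on the lower side.

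Since Casp1 and Casp12 are neighbours, the 7 other genes of the table that start within 1 Mb of the caspase cluster were described as well. Of these, 1 was higher, 1 lower and 5 not past the test, with a median log2 difference of -0.01. Gria4, a glutamate receptor subunit that starts at -502.3 kb from Casp1, was at 85, 92, 84 and 87 and at 22, 35, 27 and 33 (log2 difference -1.56, adjusted p = 1.77e-05). Pdgfd, a growth factor gene that starts 870.1 kb past the start of Casp1, was higher (0.55, adjusted p = 1.89e-05). Aasdhppt, Kbtbd3, Msantd4, the pseudogene Gm7390 and Ddi1 were not past the test. With 1 call before Casp1 and 1 past it among these 7 genes, no pattern by side can be read.

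**Figure D4:**
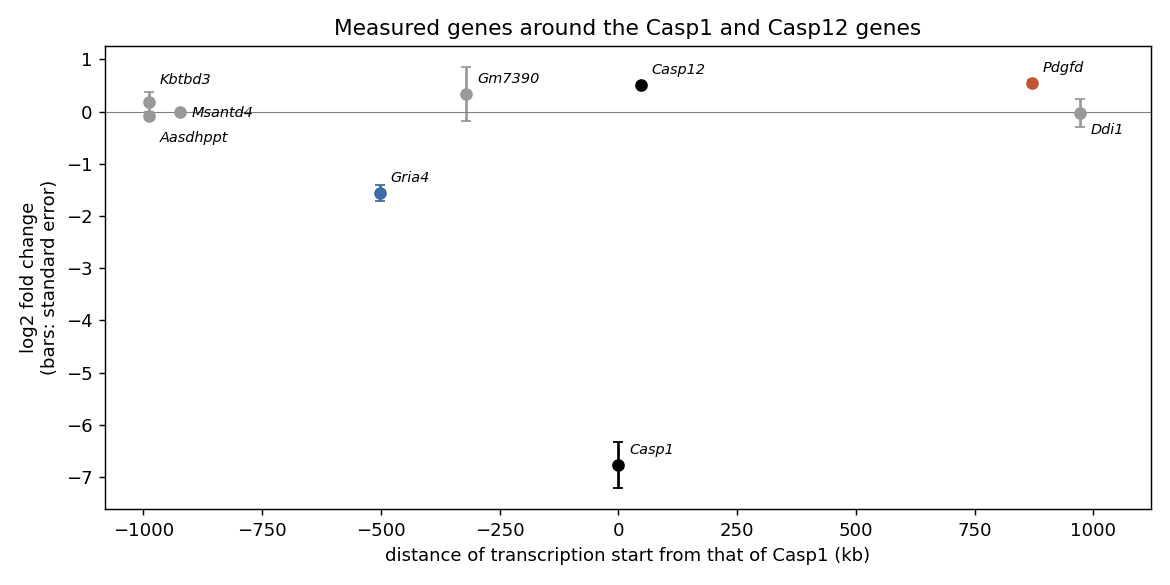
Log2 difference (vertical axis, libraries labelled Cyp1b1-/- over Cyp1b1+/+, bars for the standard error) of the measured genes around Casp1, against the distance of their start from that of Casp1 in kb. Casp1 lies at -6.77, Casp12 (black, as Casp1, without a test) at 0.51, Gria4 (blue, lower) at -1.56 and Pdgfd (orange, higher) at 0.55, and the grey genes were not past the test.

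The 5 genes whose pattern over the 8 libraries was most like that of Casp1 were found by the root mean square difference of log2(value + 1), each gene centred on its mean. They were the pseudogene Gm15387 (difference 0.82), the protocadherin gene Pcdhga7 (0.93), the peptide transporter gene Slc15a2 (1.11), the choline transporter gene Slc5a7 (1.18) and C130026I21Rik (1.18). Gm15387 was at 34 to 65 in the Cyp1b1+/+ libraries and at 0 in all others. Pcdhga7 was at 446 to 526 and 4 to 20, Slc15a2 at 75 to 86 and 0 to 3, Slc5a7 at 46 to 78 and 0 to 5, and C130026I21Rik at 60 to 87 and 0 to 3. None of the 5 is among the listed genes of these pathways, and all 5 lie on other chromosomes than Casp1. The likeness is a match of pattern over 8 libraries only.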

How the data were processed

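RNA of retinal AC was sequenced in 8 libraries, 4 per group. According to the methods and processing notes, reads were demultiplexed with bcl2fastq 2.20, aligned with STAR 2.5.3a to GRCm38.p6 and counted per gene with RSEM, low genes were removed, and the authors applied TMM with edgeR 3.28.0. The deposited values are these normalized counts rounded to whole numbers, a score per gene and not raw reads, so the depth of each library cannot be read from them and no count model was used. A stated filter on low values did not hold throughout, since 71 genes had 2 or more libraries at 0, Casp1 among them. The authors' own fold changes and p-values, and selections made by them, were not used.

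Log2(value + 1) of all 13575 genes was fitted with limma 3.58.1 (R 4.3.3) with a mean-variance trend, without covariates, two-sided, with Benjamini-Hochberg adjustment over all genes. No filter was applied. The fit was tested on simulated data. Coordinates are from GENCODE M21, which matched 13553 genes. Alternatives were the constants 0.5 and 0.1, median-ratio and equal-total scaling, filters of at least 10 in every library or a mean of at least 50, a replicate block, no trend, and leaving out each library. The members and lists were chosen with earlier results of these data known. Named genes were the members, Cyp1b1, in each list up to 5 with the smallest p and up to 2 more called genes with the largest difference, the 4 highest markers of each type, Xist, Ddx3y, the neighbours of the caspase cluster and the 5 genes most like Casp1. All further genes were picked for naming with their values known. Some genes of the lists are not reported here.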

Additional observations from a re-analysis of the deposited data

Results flagged for a closer look

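A library was singled out where its gap to the nearest of the other 3 libraries of its group as a share of the group's range was above Dixon's critical value for 4. Chance gives about 1 in 20 groups, and 22 of the 176 groups tested had such a library. Among the members it was Casp1, at 3 in replicate 4 labelled Cyp1b1-/- and 0 in the others. The values are whole numbers, so 3 tied libraries flag the remaining library by themselves, as for Casp1. All genes also share the same libraries. The count of flagged libraries therefore cannot be weighed against that chance rate.

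Replicate 2 labelled Cyp1b1-/- accounted for 7 of them. There Col1a1 was at 122121 (1643 to 1843 in the others of the group), Col3a1 at 6407 (46 to 73), Acta2 at 34943 (23895 to 25712), Gja1 at 3124 (1180 to 1232), Pdgfrb at 738 (301 to 361), Eng at 79 (14 to 19) and Gbp11 at 88 (86 in each). In replicate 1 of that group Glul was at 1725 (1591 to 1607), and in replicate 3 Naip2 was at 17 (10 to 11).

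In Cyp1b1+/+ replicate 1, Acta2 was at 25862 (21320 to 21907 in the others), Bcl2l1 at 1891 (1720 to 1747), Mlkl at 2649 (2525 to 2532), Kdr at 191 (222 to 228), Sptan1 at 17255 (18154 to 18231) and Ddx3y at 1 (0 in each). In replicate 2, Bcl2 was at 353 (304 to 310), Il18bp at 871 (730 to 743), Parp1 at 3487 (3711 to 3729) and Tlr4 at 77 (87 to 89). Gm15387 was at 34 in replicate 3 (64 to 65) and Naip6 at 27 in replicate 4 (26 in each).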

How the results depend on the processing

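Gsdmd, Casp12, Casp8, Casp9, Casp2 and Casp6 kept their direction under every alternative run, with log2 differences of 1.35 to 1.39, 0.48 to 0.54, 0.20 to 0.25, -0.28 to -0.20, 0.08 to 0.13 and 0.07 to 0.13. Casp1 was at -7.56 with a constant of 0.5 and at -9.34 with 0.1, and had no value with at least 10 in every library. With a mean of at least 50 the sensors and adaptors had 2 lower genes, since fewer were tested. The caspase inhibitors and PIDDosome genes had 1 lower gene under that filter and 1 under at least 10 in every library. With each library left out in turn, the list of caspase substrates had 1 to 2 higher genes. Over all alternatives run, it had 6 to 8 lower genes. The caspase-11 inducers and GBPs had 14 to 17 higher genes, with 14 under equal-total scaling, and the BCL-2 family and apoptosome had 6 to 9. The log2 difference of Col1a1 ranged from -0.29 (without replicate 2 labelled Cyp1b1-/-, adjusted p = 0.0191 with limma) to 1.78, Esam from -0.082 to 0.025, Glul from -0.054 to 0.00216, Eng from -0.57 to 0.23, Flt1 from -0.063 to 0.35, Msantd4 from -0.033 to 0.016, Ddi1 from -0.19 to 0.13 and Gm7390 from -0.19 to 0.70. The cause was not tested. Cd68 missed the threshold without any of 3 libraries (limma, adjusted p up to 0.0810) and Dffb without either of 2 (up to 0.0575), and Col3a1 passed it without replicate 2 labelled Cyp1b1-/- at -3.88 (adjusted p = 4.10e-11). Same-numbered libraries did not deviate together (r = -0.0226 to -0.0045 over genes), and with the replicate block 3543 genes were higher and 3562 lower, against 3636 and 3649 without. The unknown depth of each library limits statements on low genes such as Casp1, Naip6 and Nol3.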
